A study of Mus musculus with 27 samples.

Results

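Interferon response and antigen presentation genes were followed in mature adipocytes of the 3T3-L1 line, mouse preadipocytes that turn into fat cells in culture, during exposure to 1 µM rosiglitazone, a drug that activates the nuclear receptor PPARγ. A total of 39 genes were chosen by what they do: the type I interferon receptor and its transcription factors, nucleic acid sensors, antiviral effectors, and the proteins that cut, carry and display peptides on MHC class I molecules. The choice was made with earlier results of these data known. Of the 39 genes, 35 were measured, among 18781 genes in all, each by a probe set annotated to that gene alone. Ifi44, which is interferon-induced, had no such probe set here. Parp9 and Dtx3l, partners in an interferon-induced ubiquitin ligase complex, shared their probe sets with each other. H2-D1, a class I heavy chain, shared its probe set with H2-K1 and LOC547349.

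RNA was hybridised to 27 Affymetrix Mouse Gene 1.1 ST arrays in 9 groups of 3. These were untreated cells (time 0) and cells collected 30 min or 1, 2, 6, 12, 24, 36 or 48 h after rosiglitazone, dissolved in DMSO, was added. All groups came from the same line, differentiated with dexamethasone, insulin and 3-isobutyl-1-methylxanthine. Untreated arrays were the control for each of the 8 times, so time in culture, handling and the solvent cannot be told apart from the drug, and the 8 comparisons share these 3 arrays. The series' design text also speaks of cells given DMSO, while the labels of the 3 control arrays say no treatment, and no array used here is labelled as DMSO alone. Values are log2 intensities, and a change is the difference of group means on that scale ± SE, from a limma model of all 27 arrays, where a difference of 1 doubles the intensity. A gene rose or fell where its p-value, adjusted over all 18781 genes by the Benjamini-Hochberg method, was below 0.05. Those p-values rest on 1 spread per gene, pooled over the 9 groups of 3 arrays and moderated over all genes, not on the 2 groups compared alone. That spread may be technical because separate cultures are not stated in the labels, and the number of arrays limits the precision. Brightness differs between probe sets for technical reasons, so levels are compared within a gene. Where genes are called bright or dim against other genes, or are summed, that is a rough guide alone.

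Type I interferons bind a receptor made of IFNAR1 and IFNAR2, which activates STAT2, and STAT2 acts with IRF9 to switch on genes that carry an interferon-stimulated response element (ISRE) near their start. Interferon gamma acts on gamma-activated sites (GAS) and induces the factor IRF1, the immunoproteasome and the peptide transporter TAP. Fat cells respond to interferons and display class I molecules, and PPARγ agonists are known to restrain inflammatory gene expression in several cell types.

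The adipocyte markers and the preadipocyte and fibroblast markers were bright, and most markers of blood cells were dim. All 8 adipocyte markers lay among the brightest genes, Adipoq at 11.91 ± 0.04 and Fabp4 at 11.45 ± 0.03 in untreated cells (SD, n = 3). Of 10 macrophage and leukocyte markers in untreated cells, 7 read 2.68 (Adgre1) to 3.45 (Csf1r), with Ptprc at 3.21, against a median gene of 4.76 and a 5th percentile of all genes of 2.46. Cd14 (4.63) and Lyz2 (4.68) lay close to the median gene, and Cd68 (5.02) lay above it. The summed linear intensity of the 10 was 114 to 124 at 24 h, against 141 to 152 in untreated cells, and 2 of them, Cd14 and Lyz2, were called lower then. The 5 preadipocyte and fibroblast markers read 7.92 (Thy1) to 10.22 (Dlk1) in untreated cells, all above the median gene. Of these 5 markers, 5 were called lower at 24 h and 4 at 48 h, with sums of 2130 to 2460 at 24 h and 2090 to 2190 at 48 h, against 2940 to 3060 in untreated cells. The part of these shifts in the results that follow was not tested, and in bulk RNA fewer cells of a type and less RNA per cell cannot be told apart. Replicates 1 and 2 of 36 h stood somewhat apart: the root mean square difference from the other 2 arrays of the group was 0.216 for replicate 1 and 0.194 for replicate 2, against 0.122 to 0.176 for the other arrays. Without either of them, or any other single array, 11 to 15 members were called at 36 h.

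Stretches of DNA upstream of 7 members and between Tap1 and Psmb9 are printed here because they carry, or lack, the letters these pathways are known for, in genes that fell, rose or were never called. They come from RefSeq (build GRCm38.p6), read 5′ to 3′ on the gene's strand, and capitals mark the matches. Windows of 300 bases, 250 before to 50 after a gene's start, were listed for 30 of the 39 members, and 35 such windows were searched on both strands. Parp14, Usp18, Zbp1, Dhx58, Tap2, Mx1, Parp9, Oas2 and Mx2 had none listed. The ISRE letters searched were GAAA, any 2 bases, then GAAA, or the reverse complement, TTTC, any 2 bases, then TTTC. The GAS letters were TTCNNNGAA, which is its own reverse complement. Of genes that fell, Stat2 (chr10:128270256-128270305, + strand) and Gbp2 (chr3:142620584-142620633, + strand) and B2m (chr2:122147528-122147577, + strand) hold an ISRE match.
Stat2: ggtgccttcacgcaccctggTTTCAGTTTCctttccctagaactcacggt
Gbp2: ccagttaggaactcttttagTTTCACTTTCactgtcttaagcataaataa
B2m: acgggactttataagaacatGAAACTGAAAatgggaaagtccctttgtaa
Of genes that were never called, Isg15 (chr4:156200855-156200916, - strand) holds 3 overlapping matches between positions -78 and -57, counted back from its first base, and Rsad2 (chr12:26456543-26456592, - strand) holds 1.
Isg15: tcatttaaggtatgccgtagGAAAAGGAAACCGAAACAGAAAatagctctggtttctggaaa
Rsad2: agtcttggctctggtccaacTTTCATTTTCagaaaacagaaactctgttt
GAS letters stand before Irf1 (chr11:53769904-53769952, + strand), which rose, and Psmb8 (chr17:34198078-34198126, + strand), which fell.
Irf1: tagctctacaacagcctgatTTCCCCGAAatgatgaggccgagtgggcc
Psmb8: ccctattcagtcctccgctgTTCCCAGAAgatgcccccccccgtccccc
Tap1 and Psmb9 are read outward in opposite directions from 1 shared stretch of 225 bases (chr17:34187331-34187555, printed on the + strand, along which Tap1 is read), which holds neither set of letters.
Tap1 and Psmb9: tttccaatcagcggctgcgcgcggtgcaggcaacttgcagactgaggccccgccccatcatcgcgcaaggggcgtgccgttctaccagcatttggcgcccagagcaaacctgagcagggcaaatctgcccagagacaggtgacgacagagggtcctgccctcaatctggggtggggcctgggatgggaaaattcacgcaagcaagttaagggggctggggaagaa

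ISRE letters occurred in 12 of the 35 member windows (34.3%), against 3.44% of all 32851 windows listed for the mouse. GAS letters occurred in 8 of them (22.9%), against 8.3% of all windows. A tandem PPARγ response element, AGGTCA, any 1 base, then AGGTCA, occurred in 0 of the member windows and in 13 windows in all (0.0396%). Letters that rare would seldom occur in 35 windows, so the 0 cannot tell these members from other genes. These members were chosen as interferon genes, so the shares describe the choice. Among the 27 measured members with a window, ISRE letters stood before 6 of the 17 that fell at any time (B2m, Gbp2, Gbp3, Ifih1, Ifit3 and Stat2, with the match of Ifih1 lying after its start). They stood in 6 of the 8 that were never called (Isg15, Oas1a, Oas3, Ifit1, Rsad2 and Bst2) and in 0 of the 2 that rose (Irf7 and Irf1). All of these never called genes except Bst2 lay below the median gene in brightness. No call of B2m, Gbp2 or Gbp3 held when each array was left out in turn. Whether brightness bears on these counts was not tested. A match is a run of letters, and says nothing of whether a factor binds there.

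The expression of most members that changed went down, from 6 h on. At 30 min 0 members were called by limma, beside 0.0479% of all genes, and 4 had an unadjusted p below 0.05, 2 of them higher. At 1 h Oasl2, an oligoadenylate synthetase-like antiviral protein, was the 1 member called, lower, beside 0.516% of all genes. At 2 h 2 members rose (Usp18 and Irf7) and 1 fell (Stat2), against 3.04% of all genes higher and 2.87% lower. At 6 h 1 member rose and 13 fell, against 8.39% of all genes higher and 8.18% lower. The count lower was 14 of 35 at 12 h (40.0%, against 9.38% of all genes), 16 at 24 h (45.7%, against 10.5%), 13 at 36 h (37.1%, against 10.5%) and 8 at 48 h (22.9%, against 11.4%). Higher calls numbered 1 (12 h), 2 (24 h), 2 (36 h) and 1 (48 h), beside 9.48%, 10.1%, 10.9% and 12.6% of all genes. The members were chosen with earlier results of these data known, and the part of that choice in these shares was not tested.

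**Figure D1:**
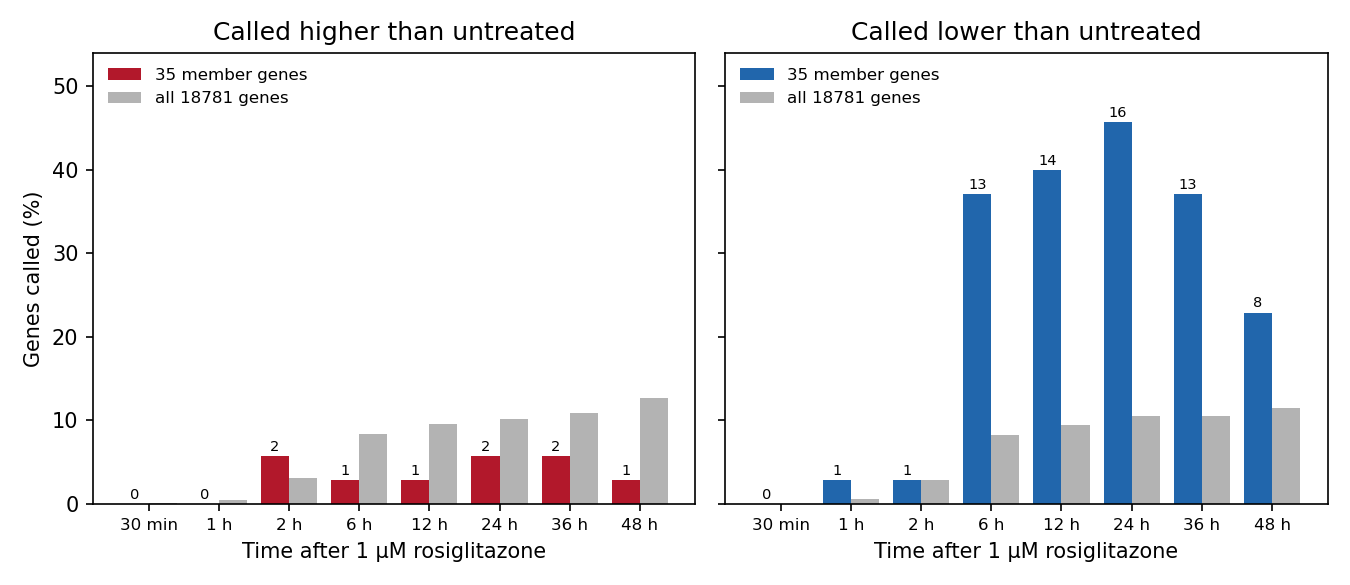
Percent of genes called higher (left) or lower (right) than untreated cells at each time after rosiglitazone, for the 35 measured members (coloured bars, with the number of genes above) and all 18781 genes (grey bars). The share of members called lower is 37.1% at 6 h, 45.7% at 24 h and 22.9% at 48 h, against 8.18%, 10.5% and 11.4% of all genes.

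The median change of the 35 members was -0.04 after 2 h, -0.19 after 6 h, -0.22 after 12 h, -0.24 after 24 h, -0.19 after 36 h and -0.11 after 48 h, while the median of all genes lay between -0.01 and 0.01. Over the whole course 23 of the 35 members changed by the limma F-test (65.7%), against 40.5% of all genes. Of the 24 members called at any time, 21 were called lower and 3 higher (Usp18, Irf7 and Irf1), and 0 were called in both directions. The share of all genes called at any time was not counted, so these numbers cannot be set against all genes. Of the 11 never called, 8 lay below the median gene in brightness.

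The counts depend on single arrays and on the scale. The 14 members called at 6 h became 9 without untreated replicate 2, and the 9 called at 48 h became 6 without untreated replicate 1. Of the 75 calls against untreated cells, 44 held when each of the 6 arrays compared was left out in turn. When each array was centred on its own median, the members called higher and lower were 2 and 6 (6 h), 2 and 10 (12 h), 2 and 12 (24 h), 2 and 10 (36 h) and 1 and 6 (48 h). On that scale the share of all genes called lower was 4.7% (6 h), 6.4% (12 h), 6.99% (24 h), 7.02% (36 h) and 8.74% (48 h), and the share called higher was 15.3%, 13.7%, 16.6%, 18.6% and 16.9%. Among all called genes that centring moved the share called higher to 76.5% at 6 h and 70.4% at 24 h, against 50.6% and 49.0% on the deposited scale.

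**Figure D2:**
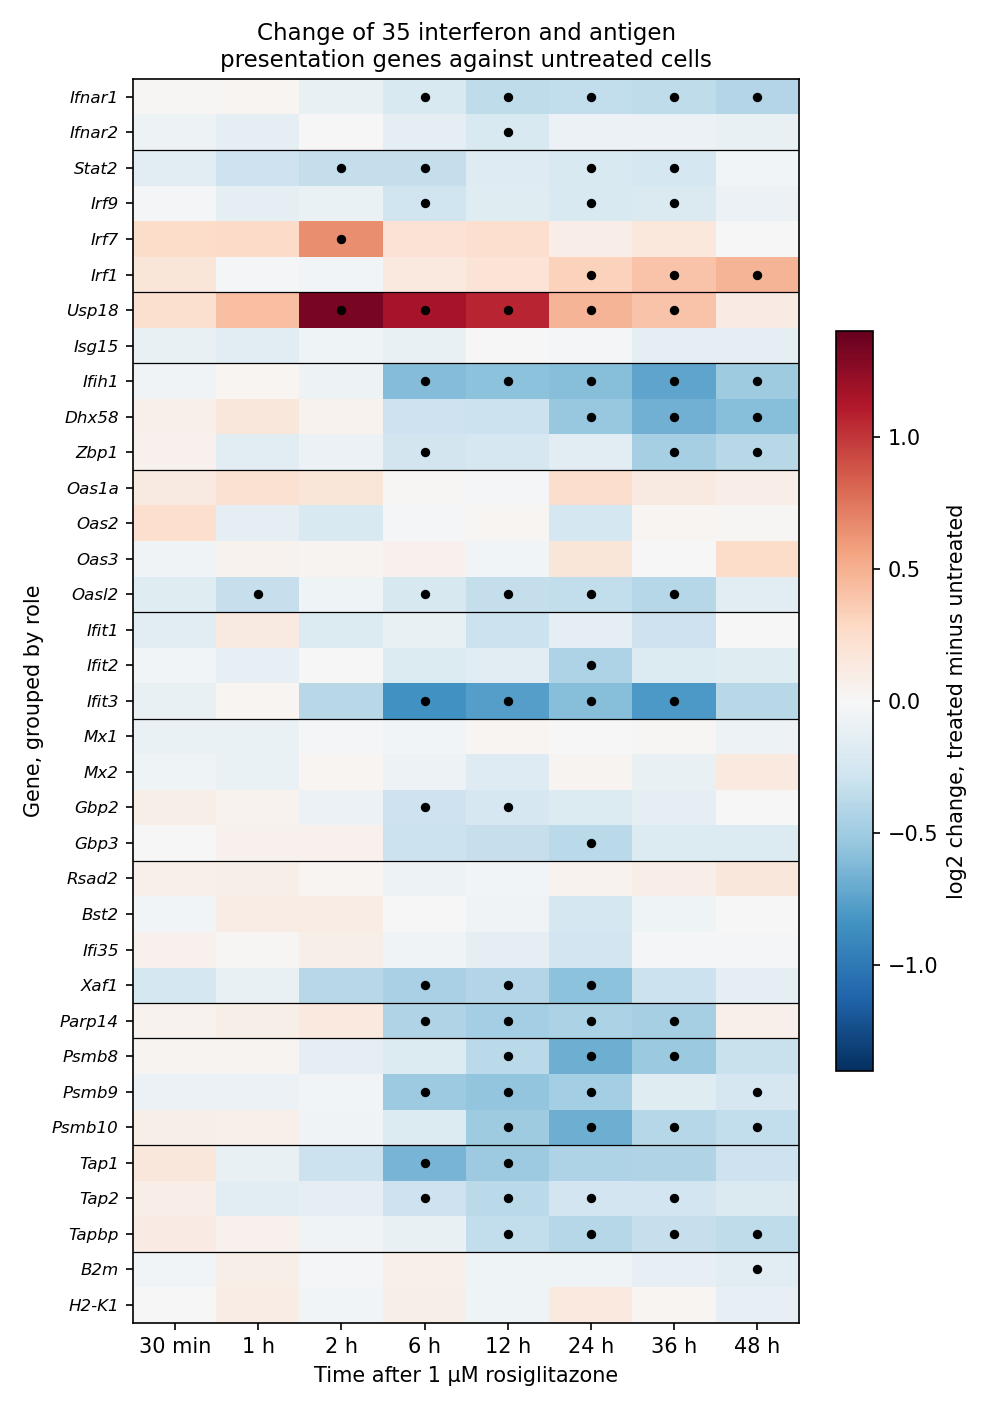
Log2 change of each of the 35 measured members (rows, grouped by role) at each time after rosiglitazone, treated minus untreated, with blue lower and red higher. Dots mark an adjusted p below 0.05. Usp18 is the darkest red row, with 1.32 at 2 h, and Ifit3 at 6 h (-0.85) is the lowest cell with a dot.

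Usp18, which removes ISG15 from proteins and blocks signalling at the IFNAR2 chain, had the highest change of the 35 members. Its arrays read 7.57, 7.81 and 7.97 at 2 h, against 6.33, 6.51 and 6.53 in untreated cells. All 3 treated arrays lay more than 1 log2 unit above the highest untreated array. The change was 1.32 ± 0.135 at 2 h (2.5-fold, adjusted p = 3.02e-07), 1.16 at 6 h (adjusted p = 1.01e-06) and then 1.06 at 12 h (adjusted p = 2.59e-06). Usp18 then fell back: it read 7.00, 6.98 and 6.84 at 24 h, which was lower than at 2 h by limma (-0.84 ± 0.135, adjusted p = 4.14e-05). It was still higher than untreated at 24 h (0.48, adjusted p = 0.0109), a call that ended without untreated replicate 1 (0.42, adjusted p = 0.0577). The call at 36 h (0.40, adjusted p = 0.0362) rested on replicate 1 at 7.17, beside 6.72 and 6.67, and without it the change was 0.24 (adjusted p = 0.244). At 48 h the arrays overlapped those of untreated cells.

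Isg15, the ubiquitin-like modifier that USP18 removes, showed no such course. It read 3.25, 3.24 and 3.11 at 2 h, against 3.29, 3.17 and 3.32 in untreated cells. The ranges overlapped, its probe set lay below the median gene throughout, and no time was called (change at 2 h -0.06, adjusted p = 0.84).

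Irf7, the factor that amplifies type I interferon production, rose early and briefly. Its arrays were 6.20, 6.04 and 6.20 at 2 h, against 5.47, 5.58 and 5.43 in untreated cells, without overlap. The change was 0.66 ± 0.112 (1.58-fold, adjusted p = 0.000345). At 24 h the arrays stood at 5.54, 5.51 and 5.70, within or just above the untreated range, and were lower than at 2 h (-0.56, adjusted p = 0.000552).

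Irf1, a factor induced by interferon gamma that activates class I pathway genes, rose late. At 2 h it was at 7.52, 7.42 and 7.32, against 7.54, 7.43 and 7.41 in untreated cells, which overlapped. Its arrays read 7.79, 7.67 and 7.89 at 24 h, 7.88, 7.82 and 7.87 at 36 h, and 7.77, 8.07 and 7.96 at 48 h, all above every untreated array. The change was 0.33 at 24 h (adjusted p = 0.00181), 0.40 at 36 h (adjusted p = 0.000222) and then 0.47 ± 0.074 at 48 h (1.39-fold, adjusted p = 2.36e-05), and each call held without any single array. With arrays centred on their median Irf1 was also called higher at 6 h (0.22, adjusted p = 0.0298) and again at 12 h (0.25, adjusted p = 0.0135). A second, dimmer probe set of Irf1, near 4.2, had means of 4.09 at 48 h and 4.22 in untreated cells and did not follow this rise.

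**Figure D3:**
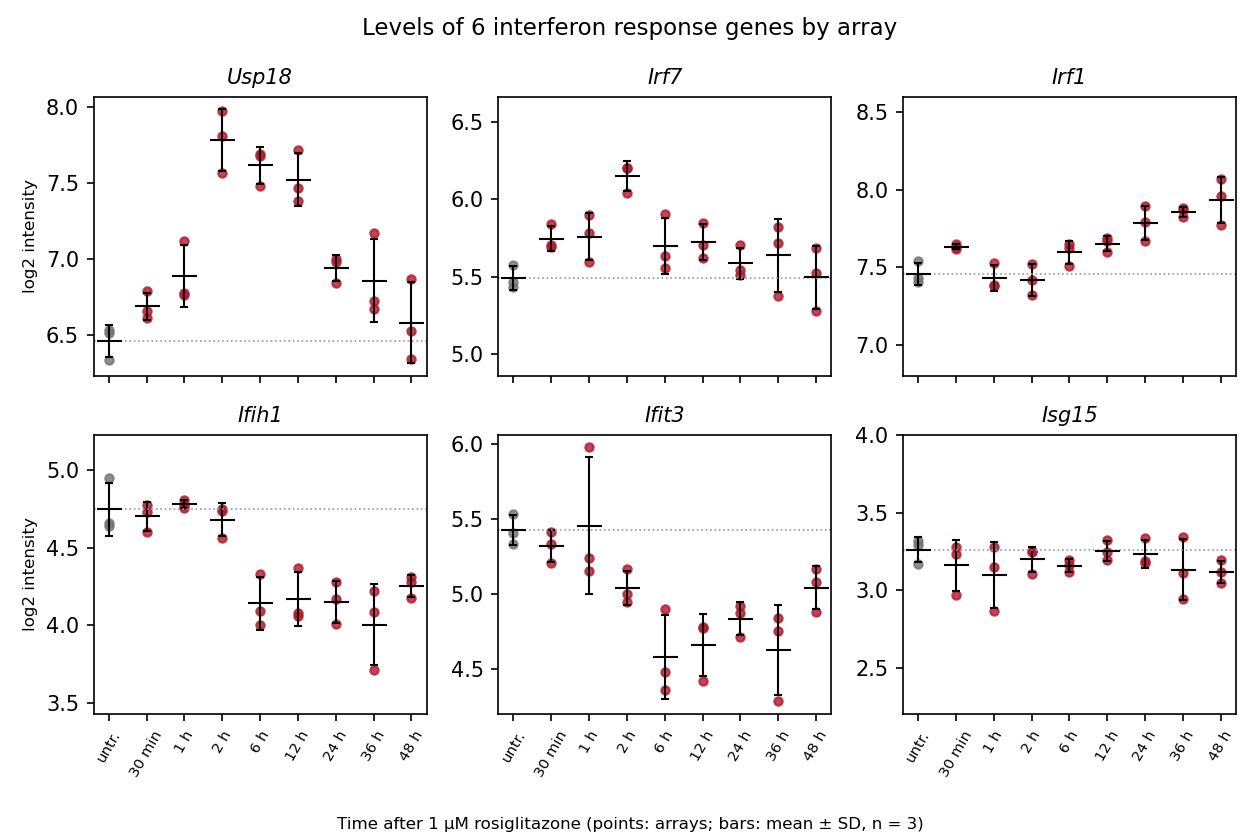
Log2 intensity (y axis) of 6 interferon response genes on each array (points) by time after rosiglitazone (x axis), with group means and SD (bars, n = 3) and the untreated mean as a dotted line. Usp18 and Irf7 peak at 2 h (means 7.78 and 6.15), Irf1 is highest at 48 h (7.93), Ifih1 is called lower from 6 h to 48 h and Ifit3 from 6 h to 36 h, and Isg15 stays near 3.2.

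The receptor chain Ifnar1 fell and stayed low. It read 8.18, 8.15 and 8.17 at 48 h, against 8.53, 8.63 and 8.58 in untreated cells. The 2 sets of arrays did not overlap, and the change of -0.41 ± 0.060 (adjusted p = 1.04e-05) was the lowest of this gene. At 12 h, 24 h and 36 h the change was -0.35, -0.34 and -0.36 (adjusted p = 0.000117, 0.000112 and 6.7e-05), and these calls held without any single array. The call at 6 h (-0.21, adjusted p = 0.016) ended without untreated replicate 2 (-0.19, adjusted p = 0.077). Ifnar2, the other chain, was called at 12 h alone: its arrays read 8.80, 8.71 and 8.86, against 8.995, 9.01 and 9.03 in untreated cells (-0.22, adjusted p = 0.0218). That call ended without any of 4 arrays, with the highest p without the 12 h replicate 2 (-0.18, adjusted p = 0.11).

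Stat2 and Irf9, whose products act together on ISRE genes, were lower around 6 h. Stat2 arrays read 6.61, 6.58 and 6.53 at 6 h, against 6.99, 6.94 and 6.79 in untreated cells, and Irf9 read 5.86, 5.87 and 5.87, against 6.06, 6.24 and 6.15. Neither gene's ranges overlapped at 6 h. Stat2 changed by -0.33 ± 0.074 (adjusted p = 0.00213) and Irf9 by -0.28 ± 0.071 (adjusted p = 0.00615), and both calls held without any single array. Stat2 had already fallen at 2 h (-0.33, adjusted p = 0.00579), a call that ended without the 2 h replicate 2 (-0.28, adjusted p = 0.054). Both genes were also called lower at 24 h and 36 h, but the Stat2 calls ended without untreated replicate 1 (-0.17 and -0.20, adjusted p = 0.173 and 0.101) and the Irf9 calls without untreated replicate 2 (-0.17 and -0.16, adjusted p = 0.164 and 0.185). At 48 h Stat2 stood at 6.73, 7.00 and 6.89, overlapping untreated cells.

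The 3 cytosolic nucleic acid sensors fell. Ifih1 encodes MDA5, a receptor for long double-stranded RNA, and its arrays read 4.0005, 4.33 and 4.09 at 6 h and 3.71, 4.08 and 4.22 at 36 h, against 4.94, 4.66 and 4.64 in untreated cells. Every array from 6 h on lay below every untreated array. The change was -0.61 ± 0.113 at 6 h (adjusted p = 0.000373), -0.74 at 36 h (adjusted p = 1.87e-05) and then -0.49 at 48 h (adjusted p = 0.00188), and all 5 calls from 6 h to 48 h held without any single array. The drop came between 2 h and 6 h, since 6 h was lower than 2 h by limma (-0.54, adjusted p = 0.00254).

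Dhx58, which encodes LGP2, a helicase that modulates MDA5 and RIG-I signalling, fell later. It read 4.47, 4.24 and 4.57 at 36 h, against 5.03, 5.17 and 5.10 in untreated cells, with no overlap. The change was -0.53 ± 0.122 at 24 h (adjusted p = 0.00195), -0.68 at 36 h (adjusted p = 0.000151) and then -0.59 at 48 h (adjusted p = 0.000603). Zbp1, a sensor of Z-form nucleic acid that can trigger cell death, stood at 4.35, 4.32 and 4.11 at 36 h, against 4.63, 4.70 and 4.86 in untreated cells. The Zbp1 ranges did not overlap, and its change was -0.47 ± 0.088 at 36 h (adjusted p = 0.000266) and then -0.39 at 48 h (adjusted p = 0.00157). These calls of Dhx58 and Zbp1 held without any single array, while the Zbp1 call at 6 h (-0.26, adjusted p = 0.0462) ended without untreated replicate 3 (-0.19, adjusted p = 0.216).

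Several effectors were dim and were never called. Oas1a, Oas2 and Oas3, oligoadenylate synthetases whose product activates RNase L, had means of 2.86 to 3.25 over the 27 arrays. The same was true of Ifit1, an RNA cap-binding protein (mean 3.57), of the antiviral GTPases Mx1 (3.31) and Mx2 (3.09), and of Rsad2, which encodes viperin (2.74). All of these lay well under the median gene of 4.76, and whether dimness hid changes was not tested. Oas1a probes may also read close paralogs.

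Ifit3, which binds and stabilises IFIT1, had the lowest change among the effectors. Its arrays read 4.48, 4.36 and 4.90 at 6 h, against 5.34, 5.54 and 5.41 in untreated cells. No array overlapped, though the 6 h arrays were spread (SD 0.28, against 0.10). The change was -0.85 ± 0.168 at 6 h (0.555 times the untreated level, adjusted p = 0.000708), -0.77 at 12 h (adjusted p = 0.00158) and then -0.80 at 36 h (adjusted p = 0.000846). At 24 h it was -0.59 (adjusted p = 0.0117), and that call ended without the 24 h replicate 1 (-0.53, adjusted p = 0.0591). At 48 h Ifit3 was not called (-0.38, adjusted p = 0.103), and its mean of 5.04 was close to that at 2 h (5.04). Ifit3 has a near-identical neighbour, Ifit3b, that its probes may also read. Ifit2, a relative that promotes cell death, fell at 24 h, where its arrays were 3.62, 3.85 and 3.84, against 4.22, 4.26 and 4.13 in untreated cells (-0.44 ± 0.104, adjusted p = 0.00296).

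Oasl2, named above, was lower at 12 h to 36 h. Its arrays read 4.76, 4.65 and 4.62 at 36 h, against 5.09, 5.01 and 5.13 in untreated cells, without overlap. The change was -0.33 at 12 h (adjusted p = 0.00147), -0.35 at 24 h (adjusted p = 0.000761) and then -0.40 ± 0.072 at 36 h (adjusted p = 0.00015). Its call at 1 h (-0.32, adjusted p = 0.022) ended without the 1 h replicate 2 (-0.27, adjusted p = 0.143), and at 2 h it was not called (-0.06). The call at 6 h (-0.22, adjusted p = 0.033) ended without untreated replicate 3 (-0.20, adjusted p = 0.125).

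Gbp2 and Gbp3, guanylate-binding proteins that attack membranes around intracellular pathogens, were called lower, but no call of either held when each array was left out in turn. Gbp2 read 5.98, 6.12 and 6.06 at 6 h, against 6.37, 6.38 and 6.28 in untreated cells (-0.29, adjusted p = 0.0155), and the call ended without the 6 h replicate 1 (-0.26, adjusted p = 0.0732). Its call at 12 h (-0.24, adjusted p = 0.0487) ended without any of the 6 arrays, with the highest p without untreated replicate 2 (-0.22, adjusted p = 0.142). Gbp3 was called at 24 h, where it read 4.60, 4.75 and 4.38, against 5.15, 4.93 and 4.79 in untreated cells (-0.38, adjusted p = 0.0204), but not without untreated replicate 1 (-0.28, adjusted p = 0.134).

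Xaf1, a promoter of cell death that binds XIAP, was low at 24 h: 3.81, 3.79 and 4.09, against 4.56, 4.34 and 4.53 in untreated cells. The ranges did not overlap, and the change of -0.58 ± 0.138 (adjusted p = 0.00303) held without any single array. Its call at 6 h (-0.45, adjusted p = 0.025) ended without the 6 h replicate 1 (-0.34, adjusted p = 0.152). The call at 12 h (-0.41, adjusted p = 0.0367) ended without the 12 h replicate 3 (-0.33, adjusted p = 0.157). Bst2, the tether that holds budding virus at the cell surface, and Ifi35, an interferon-induced protein that binds NMI, were not called at any time against untreated cells. They were lower at 24 h than at 2 h: Bst2 read 5.56, 5.36 and 5.48, against 5.76, 5.83 and 5.87 at 2 h (-0.35, adjusted p = 0.00627), and Ifi35 read 6.23, 6.24 and 6.43, against 6.69, 6.64 and 6.61 at 2 h (-0.35, adjusted p = 0.0303). The Ifi35 call ended without any of 5 of the 6 arrays, with the highest p without the 24 h replicate 1 (-0.31, adjusted p = 0.113).

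Parp14, an ADP-ribosyltransferase that modulates STAT signalling, went down and came back. Its arrays read 4.28, 4.24 and 4.38 at 6 h and 4.40, 4.20 and 4.23 at 24 h, against 4.89, 4.73 and 4.54 in untreated cells. At 48 h they were 4.57, 4.67 and 5.12, which overlapped untreated cells. The change was -0.42 ± 0.126 at 6 h (adjusted p = 0.0213), -0.48 at 12 h (adjusted p = 0.00779), -0.44 at 24 h (adjusted p = 0.0123) and then -0.46 at 36 h (adjusted p = 0.00883). The calls at 6 h, 12 h and 24 h ended without untreated replicate 1 (-0.34, -0.40 and -0.36, adjusted p = 0.12, 0.0551 and 0.0787), and the call at 36 h ended without the 36 h replicate 1 (-0.29, adjusted p = 0.0926). Against 2 h the drop was steadier, with -0.56 at 6 h (adjusted p = 0.00494) and then -0.58 at 24 h (adjusted p = 0.00136), both held without any single array. Between 48 h and 24 h Parp14 was the 1 member called, higher by 0.51 (adjusted p = 0.0376), beside 0.713% of all genes. That call ended without the 48 h replicate 3 (0.34, adjusted p = 0.254). The brighter of the probe sets shared by Parp9 and Dtx3l had means of 6.48 at 6 h and 6.93 at 48 h, against 6.70 in untreated cells, and the other 6.05 at 6 h and 6.57 at 48 h, against 6.43.

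All 3 immunoproteasome subunits, which replace the constitutive catalytic subunits and favour peptides that fit class I molecules, fell at 12 h and 24 h. Psmb8 (LMP7) read 5.19, 4.78 and 5.32 at 24 h, against 5.79, 5.88 and 5.68 in untreated cells. Psmb9 (LMP2) read 5.61, 5.45 and 5.37, against 6.07, 6.01 and 5.80. Psmb10 (MECL-1) read 7.58, 7.73 and 7.91, against 8.62, 8.43 and 8.23. In none of the 3 genes did the 24 h and untreated arrays overlap, and at 24 h the change was -0.69 ± 0.124 for Psmb8 (adjusted p = 0.000172), -0.48 ± 0.083 for Psmb9 (adjusted p = 9.25e-05) and -0.69 ± 0.110 for Psmb10 (adjusted p = 3.85e-05). These 3 calls held without any single array, and the test of 24 h against 2 h also called each of them (-0.56, -0.44 and -0.64).

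The 3 subunits differed in when they were called. Psmb9 was the 1 of them called at 6 h (5.44, 5.44 and 5.48, change -0.51, adjusted p = 8.75e-05) and was lowest at 12 h (-0.56, adjusted p = 2.08e-05). Psmb8 and Psmb10 overlapped untreated cells at 6 h, with changes near -0.19, and were first called at 12 h. There Psmb8 changed by -0.38 (adjusted p = 0.0317), a call that ended without untreated replicate 2 (-0.33, adjusted p = 0.124), and Psmb10 by -0.49 (adjusted p = 0.00187). At 36 h Psmb8 was still lower (-0.52, adjusted p = 0.00285), as was Psmb10 (-0.40, adjusted p = 0.0091, but 0.0772 without untreated replicate 1), while Psmb9 was not called. At 48 h Psmb9 (-0.24, adjusted p = 0.0354) and Psmb10 (-0.35, adjusted p = 0.0212) were called, neither without untreated replicate 1 for Psmb9 (-0.19, adjusted p = 0.163) nor without the 48 h replicate 1 for Psmb10 (-0.23, adjusted p = 0.161).

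**Figure D4:**
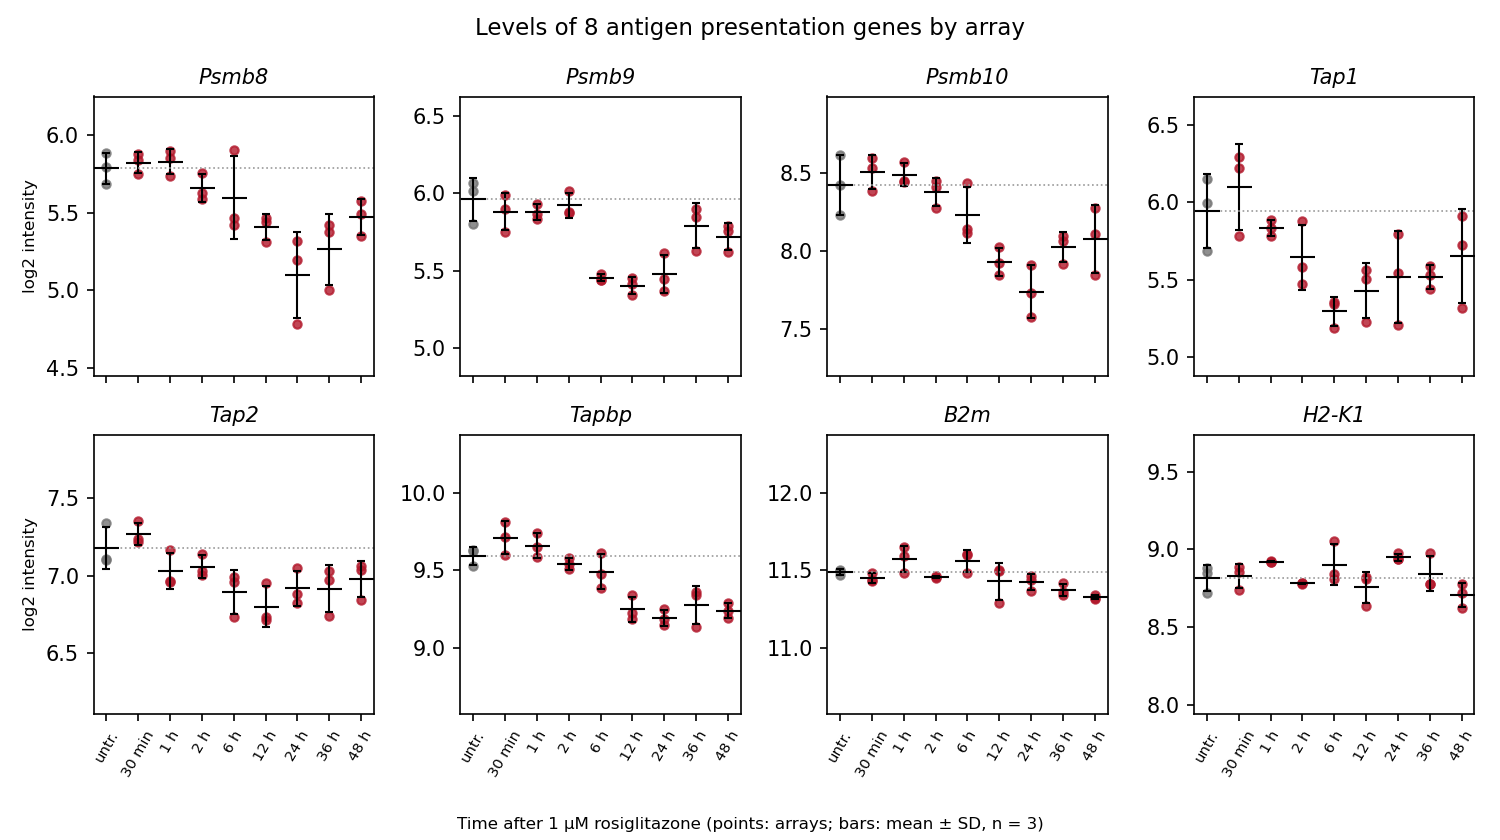
Log2 intensity (y axis) of 8 antigen presentation genes on each array (points) by time after rosiglitazone (x axis), with group means and SD (bars, n = 3) and the untreated mean as a dotted line. Psmb8 and Psmb10 are lowest at 24 h (means 5.10 and 7.74), Psmb9 and Tap2 at 12 h (5.40 and 6.80), Tap1 at 6 h (5.30) and Tapbp at 24 h (9.19), while H2-K1 stays between 8.6 and 9.1 on every array shown.

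The peptide transporter fell as well. Tap1, its first chain, read 5.34, 5.19 and 5.36 at 6 h, against 5.99, 6.15 and 5.68 in untreated cells, without overlap. The change was -0.65 ± 0.154 (0.639 times the untreated level, adjusted p = 0.00387) and held without any single array. Psmb9, which shares the stretch of DNA printed above with Tap1, was also called at 6 h and 12 h, but the Tap1 call at 12 h (-0.51, adjusted p = 0.0192) ended without untreated replicate 2 (-0.41, adjusted p = 0.117), and at 24 h Tap1 was not called (-0.43, adjusted p = 0.0504). Tap2, the second chain, read 6.73, 6.71 and 6.95 at 12 h, against 7.11, 7.34 and 7.10 in untreated cells (-0.38 ± 0.094, adjusted p = 0.00469). Its calls at 6 h (-0.29), 24 h (-0.26) and 36 h (-0.27) had adjusted p-values of 0.0372, 0.0488 and 0.0457, and ended without the 6 h replicate 3 (adjusted p = 0.216) or untreated replicate 2 (adjusted p = 0.259 at 24 h and 0.243 at 36 h).

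Tapbp encodes tapasin, which holds empty class I molecules beside the transporter, and it fell from 12 h on. Its arrays read 9.19, 9.15 and 9.25 at 24 h and 9.24, 9.19 and 9.29 at 48 h, against 9.53, 9.63 and 9.63 in untreated cells. All treated arrays from 12 h to 48 h lay below the lowest untreated array. The change was -0.35 at 12 h (adjusted p = 0.00107), -0.40 ± 0.073 at 24 h (adjusted p = 0.000177), -0.32 at 36 h (adjusted p = 0.00197) and then -0.36 at 48 h (adjusted p = 0.00059), each held without any single array.

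On their own probe sets, the class I molecules B2m and H2-K1 changed little. B2m, the light chain, read 11.34, 11.32 and 11.32 at 48 h, against 11.49, 11.47 and 11.50 in untreated cells. The ranges did not overlap, but the change of -0.16 ± 0.060 (0.893 times the untreated level) had an adjusted p of 0.0499, and the call ended without any of the 6 arrays, with the highest p without untreated replicate 3 (-0.16, adjusted p = 0.121). H2-K1, a heavy chain whose probes may also read other class I genes, was at 8.94, 8.94 and 8.98 at 24 h, against 8.72, 8.88 and 8.85 in untreated cells, and was not called (0.13, adjusted p = 0.221). The probe set shared by H2-D1, H2-K1 and LOC547349 had a mean of 8.56 at 48 h, against 8.79 in untreated cells. Its arrays read 8.54, 8.60 and 8.56 at 48 h, against 8.80, 8.78 and 8.80, without overlap. The difference was not tested.

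Times were also set against each other directly. Of the 35 members, 4 were lower at 6 h than at 2 h (Irf7, Ifih1, Parp14 and Psmb9), beside 4.89% of all genes, and 0 were called higher by limma (1 at an unadjusted p below 0.05). At 24 h against 2 h, 15 were lower and 1, Irf1, was higher, beside 10.6% of all genes lower and 9.68% higher. These tests share the 2 h arrays and do not use the untreated arrays.

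Other genes of the 2 pathways were read from a list of 96, also made with earlier results known, of which 83 were measured. Those called higher and lower were 2 and 2 (2 h), 5 and 25 (6 h), 6 and 25 (24 h) and 6 and 26 (48 h). The share called lower was 2.41% (2 h), 30.1% (6 h), 30.1% (24 h) and 31.3% (48 h), against 2.87%, 8.18%, 10.5% and 11.4% of all genes. The share called higher, 2.41%, 6.02%, 7.23% and 7.23% at these times, lay below that of all genes (3.04%, 8.39%, 10.1% and 12.6%). At 12 h it did not: 9.64% were called higher, against 9.48% of all genes. At 36 h 7.23% were called higher, against 10.9%. The share called lower was 30.1% at 12 h and 33.7% at 36 h, against 9.38% and 10.5% of all genes. The median change of the 83 genes was -0.13 at 6 h, -0.09 at 24 h and -0.12 at 48 h. The 4 called at 2 h became 1 without untreated replicate 1. Most lower calls came from the interferon genes, but 59 of the 83 measured were of that kind, so the counts alone do not compare the 2 kinds. At 6 h, 22 of the 59 fell, against 3 of the 24 measured antigen presentation genes. At 24 h the counts were 21 of 59 and 4 of 24, and at 36 h 21 of 59 and 7 of 24. At 48 h they were 19 of 59 and 7 of 24. Of all genes, 8.18% (6 h), 10.5% (24 h and 36 h) and 11.4% (48 h) were called lower. For the interferon genes the 24 h median change was -0.10, and for the antigen presentation genes -0.02. The 48 h medians were close, -0.13 and -0.11.

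At 2 h Irf2, a factor that competes with IRF1 at ISRE letters, fell: 7.83, 7.80 and 7.63, against 8.48, 8.49 and 8.29 in untreated cells (-0.67 ± 0.077, adjusted p = 2.07e-06). The other 3 called at 2 h lost their calls without some single array. They were Rtp4, an interferon-induced transmembrane protein (0.44, and adjusted p = 0.0935 without the 2 h replicate 1), the interferon gamma receptor chain Ifngr1 (0.26) and Rfx5, a factor of MHC gene promoters (-0.26, and adjusted p = 0.213 without untreated replicate 1). The Ifngr1 call ended without any of the 6 arrays compared, with the highest p without the 2 h replicate 2 (0.26, adjusted p = 0.0834). By limma all 3 were called in the same direction at 6 h: Rtp4 (0.34, adjusted p = 0.035), Ifngr1 (0.31, adjusted p = 0.00292) and Rfx5 (-0.28, adjusted p = 0.0123). At 48 h Ifngr1 was called lower (-0.28, adjusted p = 0.00414), while Rtp4 and Rfx5 were not called.

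At the late times the listed genes with the lowest change were Lgals9, Socs3, Trafd1, Tapbpl and Nmi. Lgals9, which encodes the galectin-9 lectin, read 5.54, 5.47 and 5.84 at 24 h, against 7.01, 7.38 and 7.36 in untreated cells (-1.63 ± 0.134, adjusted p = 1.7e-09). That is 0.322 times the untreated level, and at 48 h the change was -1.37. Socs3, an inhibitor of cytokine receptor signalling, changed by -0.94 at 24 h (adjusted p = 6.67e-05), and Trafd1, a restraint on innate immune signalling, by -0.89 (adjusted p = 6.85e-10). Tapbpl, a tapasin relative that edits class I peptides, changed by -0.85 at 24 h (adjusted p = 1.7e-06) and then -0.80 at 48 h, and Nmi, the partner of IFI35, by -0.82 at 48 h (adjusted p = 1.87e-08).

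Some listed genes rose. Isg20, an interferon-induced exonuclease that degrades RNA, read 9.12, 8.93 and 8.85 at 24 h and 9.25, 9.36 and 9.14 at 48 h, against 7.85, 7.93 and 8.07 in untreated cells. The change was 1.02 ± 0.085 at 24 h (adjusted p = 2.43e-09) and then 1.30 at 48 h (2.46-fold, adjusted p = 2.48e-11), yet at 2 h it was not called (0.11, adjusted p = 0.606). Ifi27, an interferon-induced mitochondrial protein, rose by 0.47 at 24 h (adjusted p = 1.88e-06) and then 0.51 at 48 h (adjusted p = 4.8e-07). Tor3a, an interferon-induced ATPase, rose by 0.32 at 24 h (adjusted p = 0.000429), Trim21, a cytosolic antibody receptor, by 0.35 at 48 h (adjusted p = 0.00225), and Rfxap, a partner of RFX5, by 0.39 at 48 h (adjusted p = 0.000333). The Rfxap call at 24 h (0.25, adjusted p = 0.0186) ended without the 24 h replicate 1 (0.17, adjusted p = 0.174).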

How the data were processed

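Partek and RMA, a method of background correction, normalization and probe summary, are named per the submitters' processing notes, with no version or role given. The authors deposited log2 intensities for 28815 probe sets. Probe sets annotated to several symbols were left out. A gene with several of its own was represented by the brightest on average over the 27 arrays, which gave 18781 genes, with no filter on dim ones. The array annotation's genome build is not given in the sources used here.

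Group means were modelled in limma 3.58.1 (R 4.3.3, lmFit and eBayes) with no covariates. Tests were two-sided, and the Benjamini-Hochberg adjustment ran over all genes. Python 3.11.15, pandas 2.3.3, numpy 2.4.6 and matplotlib 3.10.9 made tables and plots, and the model was tested on simulated data.

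The members, the lists and the tests were chosen with earlier results of these data known. All members could be named. Other pathway genes were named at 2 h, 24 h and 48 h: at most 4 highest and 4 lowest changes, among called genes whose arrays did not overlap untreated ones. Alternatives were the replicate number as a block, bright genes alone (above the median mean), averaged probe sets, centred arrays, quantile normalization, trended and robust variance, models of the 6 arrays compared, and models without replicates.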

Additional observations from a re-analysis of the deposited data

Results flagged for a closer look

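Direct tests between times found members whose change against untreated cells differed from 1 time to another, by the same limma model and adjustment over all genes. From 2 h to 6 h the change moved by -0.45 for Irf7, -0.54 for Ifih1, -0.56 for Parp14 and -0.47 for Psmb9. The Irf7 call ended without the 6 h replicate 1 (-0.38, adjusted p = 0.0674), and the others held without any single array.

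From 2 h to 24 h, among the interferon receptor and signalling genes, the change moved by -0.24 for Ifnar1, -0.56 for Irf7, -0.84 for Usp18 and 0.37 for Irf1, the 1 member that moved up. Among sensors and effectors it moved by -0.53 for Ifih1, -0.59 for Dhx58, -0.28 for Oasl2, -0.44 for Ifit2, -0.44 for Gbp3, -0.35 for Bst2, -0.35 for Ifi35 and -0.58 for Parp14. Among antigen presentation genes it moved by -0.56 for Psmb8, -0.44 for Psmb9, -0.64 for Psmb10 and -0.35 for Tapbp. The calls of Gbp3 (-0.34, adjusted p = 0.0616 without the 24 h replicate 3) and Ifi35 (-0.31, adjusted p = 0.113 without the 24 h replicate 1) ended without single arrays. Bst2 and Ifi35 were called in this comparison although no time was called for them against untreated cells.

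From 24 h to 48 h Parp14 moved by 0.51, and the call ended without the 48 h replicate 3 (0.34, adjusted p = 0.254).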

How the results depend on the processing

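No result changed sign under any alternative run. The 1 member called at 1 h numbered 0 with the replicate block, with centred arrays, with a trended and robust variance and with only the 6 arrays compared, and 2 among genes above the median mean and after a further quantile normalization. The 14 called at 6 h numbered 8 with centred arrays. The 1 called between 48 h and 24 h numbered 0 with the replicate block and with only the 6 arrays compared. Of the other pathway genes, the 4 called at 2 h numbered 7 among genes above the median mean. The causes were not tested.

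Leaving out 1 array, or 1 replicate number of every group, gave members called of 0 to 1 (1 h), 2 to 3 (2 h), 3 to 12 (6 h), 10 to 13 (12 h), 13 to 17 (24 h), 9 to 15 (36 h) and 6 to 9 (48 h). It gave 3 to 5 for 6 h against 2 h, 11 to 15 for 24 h against 2 h, 0 to 2 for 48 h against 24 h and 17 to 25 over the course. At 30 min it gave 0 to 0 by limma, where 4 members had an unadjusted p below 0.05. For the other pathway genes it gave 1 to 4 at 2 h, 25 to 31 at 24 h and 23 to 32 at 48 h.

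Of 116 results for single genes, calls ended for 23 with centred arrays, 10 after quantile normalization, 4 with averaged probe sets, 19 with only the 6 arrays compared, 9 with a trended and robust variance and 16 with the replicate block. Of the 116, 93 could be tested among genes above the median mean, and 0 calls ended there. The replicate numbers did not pair the samples: of 108 pairs of arrays with the same number in different groups, 3 had deviations from the group means correlated above 0.1 (median -0.126), and 0 of 27 arrays correlated best with its own number. The correlations ran from -0.445 to 0.142. What lies behind the negative ones, such as a grouping of arrays that the labels do not give, was not tested. With the block, members called numbered 3 (2 h), 11 (6 h), 13 (12 h), 15 (24 h), 12 (36 h), 7 (48 h) and 20 (over the course). Of the 35 members, 13 lay below the median gene in signal, and whether that limited calls was not tested.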
